A study of Mus musculus with 196 samples.

Results

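The Hoxb cluster is one of 4 Hox clusters of the mouse and lies on chromosome 11. It was followed through its 10 protein-coding genes, Hoxb1, Hoxb2, Hoxb3, Hoxb4, Hoxb5, Hoxb6, Hoxb7, Hoxb8, Hoxb9 and Hoxb13, taken by name in the order of the cluster. A gene counted as measured where a probe set was annotated to it and to no other gene. This held for 9 of the 10 genes, each with 1 probe set, out of 18820 genes measured in all. Hoxb8 had only a probe set that it shares with Hoxb7, so no value is given for it.

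The tissue was skin of 100 untreated mice aged 8 weeks, all from a backcross in which F1 females of FVB/N mothers and Mus spretus fathers were mated to FVB/N males. Every animal was therefore a separate genotype, FVB/N on both chromosomes or FVB/N with Mus spretus at each autosomal locus. Tail skin was measured in 97 mice (48 females and 49 males). Dorsal skin, shaved and frozen like the tail, was labelled as in anagen, when follicles grow hair, in 14 mice (8 females and 6 males) and not anagen in 85 mice (41 females and 44 males). Of these mice, 82 gave a tail array and a non-anagen dorsal array, and 14 a tail array and an anagen dorsal array. Dorsal arrays were of batches 1 (89 arrays) and 2 (10 arrays) and tail arrays of batches 3 (3 arrays) and 4 (94 arrays), so batch and site cannot be told apart.

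Values are log2 expression values, on which a difference of 1 is a factor of 2. They are signals of whole skin, in which fewer cells of a type and less RNA per cell cannot be told apart. The number of arrays limits the precision. Array medians ran from 5.67 to 6.03, and the array least like the others of its group still correlated with the group's median profile at 0.956 over all genes. Markers of the epidermis were high at both sites, and the mean of 10 epidermal genes was 10.88 to 11.38 in tail skin, 10.61 to 11.50 in anagen dorsal skin and 10.77 to 11.57 in non-anagen dorsal skin. In tails and in non-anagen dorsal skin, Eif2s3y, Uty and Kdm5d, all on the Y chromosome, read lower in every female than in any male. In 3 male tails they read only 6.21 to 7.08, while the lowest reading in any other male tail was 7.63. Leaving these 3 tails out changed no count of Hoxb genes called between sites or sexes, of tail pairs or of slopes.

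Hox genes encode homeodomain transcription factors that give cells their position along the body axis in the embryo. The genes of a cluster are used in the order in which they lie on the chromosome, from the Hoxb1 end in the head and neck to the Hoxb13 end in the tail bud. Retinoic acid and caudal factors switch the clusters on, and Polycomb and Trithorax proteins keep the chosen state. In human skin, dermal fibroblasts of the adult keep a pattern of HOX transcripts that differs from site to site.

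In tail skin, the 7 measured genes from Hoxb1 to Hoxb7 were lower than in non-anagen dorsal skin, and the 2 genes at the other end, Hoxb9 and Hoxb13, were higher (limma, adjusted p under 0.05 over all genes). Of all genes, 43.4% were lower and 43.7% higher by the same rule, so that a call alone says little here. The fitted differences of Hoxb1 to Hoxb7 were -0.28 to -0.67, where the median size over all genes was 0.30, and none of the 9 genes was lower by a factor of 2 (2.02% of all genes were). Hoxb13 was the only one higher by a factor of 2, against 3.94% of all genes. The median difference of the 9 genes was -0.49, and that of all genes was 0.00 to 2 decimals (-0.00049).

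**Figure D1:**
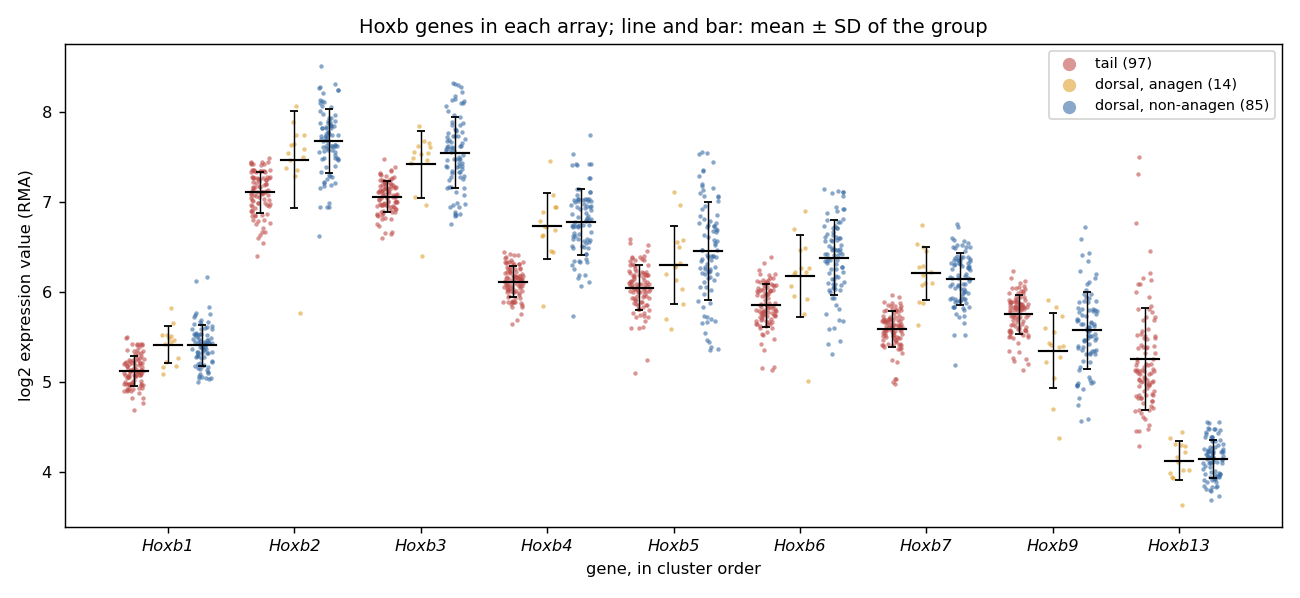
Log2 expression values of the 9 measured Hoxb genes (columns, in cluster order) in tail skin (97 arrays), anagen dorsal skin (14) and non-anagen dorsal skin (85); each point is 1 array, and the line and bar are the mean and SD of a group. From Hoxb2 to Hoxb7 the tail values are lower and more tightly packed than the dorsal ones, and Hoxb13 is the gene whose tail values stand above the dorsal ones, up to 7.50.

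Only Hoxb2, Hoxb3 and Hoxb4 had, in their highest group, a mean above 6.49, the median of the means of all genes. The other 6 had a mean below it in every group, though single arrays read higher, up to 7.56 for Hoxb5 in non-anagen dorsal skin and 7.50 for Hoxb13 in tails. Low array values can be near the background, where differences in log2 may understate those in transcript. Levels of different genes come from different probes and are not compared with each other.

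At the Hoxb1 end, the genes are best known for the hindbrain and for blood. Hoxb1, which gives the fourth hindbrain segment its identity, read 4.69 to 5.50 in the tails (median 5.12), against 5.0 to 6.17 (median 5.42) in non-anagen dorsal skin. The groups overlapped, with 25 of the 97 tails below every dorsal array. Its fitted difference was -0.28 (SE 0.03, adjusted p = 3.21e-17), and the tail was the lower of the pair in 69 of 82 mice.

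Hoxb2, a regulator of hindbrain neurons, read 6.40 to 7.50 in the tails (median 7.12), against 6.62 to 8.52 (median 7.70) in non-anagen dorsal skin. All 97 tails were below the dorsal median, and 61 of the 85 dorsal arrays were above the highest tail. The difference was -0.57 (SE 0.05, adjusted p = 3.68e-25), with the tail lower in 77 of 82 mice. Hoxb3, which acts in the hindbrain and in the thyroid and parathyroid primordia, read 6.60 to 7.48 in the tails (median 7.08), against 6.75 to 8.33 (median 7.57) in non-anagen dorsal skin. Here too all tails were below the dorsal median, and 48 dorsal arrays were above the highest tail. The difference was -0.49 (SE 0.04, adjusted p = 1.93e-22).

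Hoxb4, known for enlarging the pool of blood stem cells when it is raised, had the largest drop among the 9 measured genes. It read 5.64 to 6.44 in the tails (median 6.13), against 5.74 to 7.74 (median 6.79) in non-anagen dorsal skin. In this gene 70 of the 85 dorsal arrays were above every tail. The difference was -0.67 (SE 0.04, adjusted p = 5.56e-36), a 1.59-fold lower level in the tail, and 76 of 82 mice had the lower value in the tail. In the RefSeq annotation Hoxb3 and Hoxb4 overlap, so signal of one gene may enter the other's probe set, and their values are uncertain to that extent.

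The genes in the middle of the cluster act in the trunk. Hoxb5, which in the mouse sets the level of the shoulder girdle and acts in the nerves of the gut, spread the most in dorsal skin. It read 5.10 to 6.59 in the tails (median 6.05), against 5.35 to 7.56 (median 6.40) in non-anagen dorsal skin, and the tail was lower in 60 of 82 mice, the smallest majority among the 7 genes that were lower. Its difference was -0.41 (SE 0.06, adjusted p = 3.73e-10).

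Hoxb6, a gene of lateral mesoderm, read 5.13 to 6.39 in the tails (median 5.84), against 5.31 to 7.15 (median 6.43) in non-anagen dorsal skin, a difference of -0.53 (SE 0.05, adjusted p = 2.41e-20). Hoxb7, whose promoter is widely used to mark the ureteric bud of the kidney, read 4.97 to 5.97 in the tails (median 5.61), against 5.19 to 6.76 (median 6.16) in non-anagen dorsal skin, a difference of -0.56 (SE 0.04, adjusted p = 1.12e-34). Both had all 97 tails below the dorsal median. The tail was lower in 74 of 82 mice for Hoxb6 and in 79 for Hoxb7. The probe set that Hoxb7 shares with Hoxb8 differed by -1.69 (SE 0.06), and which of the 2 genes gave that signal was not tested.

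At the other end of the cluster the direction turned. Hoxb9, which patterns the ribs together with its paralogs, read 5.13 to 6.24 in the tails (median 5.81), against 4.57 to 6.72 (median 5.58) in non-anagen dorsal skin. The tails lay inside the range of the dorsal arrays, 76 of 97 above their median. The difference was only 0.18 (SE 0.05, adjusted p = 0.000632), with the tail higher in 56 of 82 mice. This call rests on the scaling: with every array shifted to a common median the difference was 0.04 (adjusted p = 0.414), and after quantile normalization over all arrays 0.08 (adjusted p = 0.143).

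Hoxb13, which in mouse embryos limits the growth of the tail and the caudal spinal cord, separated the sites. It read 4.28 to 7.50 in the tails (median 5.12), against 3.69 to 4.56 (median 4.16) in non-anagen dorsal skin. Of the 97 tails, 92 were above the highest dorsal array, and in all 82 mice the tail had the higher value. The difference was 1.11 (SE 0.06, adjusted p = 1.09e-41), or 2.16 times. With arrays shifted to a common median, which moved the median of all genes by -0.14, the difference was 0.97 (adjusted p = 2.95e-34), just short of a factor of 2. In the same setting Hoxb1 to Hoxb7 were further below dorsal skin and kept their calls.

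The comparison with anagen dorsal skin uses the same 97 tails and so is no independent test. Hoxb13 read 3.63 to 4.44 in the 14 anagen dorsal arrays, 9 of which were below the lowest tail, and its difference was 1.13 (SE 0.12, adjusted p = 1.72e-16). Hoxb9 was higher in the tail by 0.40 (SE 0.10, adjusted p = 0.00012). Of the other 7, 6 were lower (34.9% of all genes were lower and 38.8% higher), with differences of -0.62 to -0.29. At a factor of 2, Hoxb13 was the 1 gene higher (3.33% of all genes) and 0 were lower (1.69%). Hoxb5, at -0.24 (SE 0.12, adjusted p = 0.0561), missed the threshold. With the mouse as a random block it passed at -0.25 (adjusted p = 0.0451), and within each mouse at -0.38 (adjusted p = 0.0103). It passed under 8 of the 10 alternatives run, those 2 included, with adjusted p between 0.000978 and 0.0571 over the 10.

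Growth of hair in the dorsal skin went with no called change in any Hoxb gene (limma, adjusted p under 0.05), and no member reached an unadjusted p under 0.05 either. Of all genes, 4.11% were higher and 3.59% lower in anagen than in non-anagen dorsal skin. The largest difference was that of Hoxb6, which read 5.0 to 6.91 in anagen skin (median 6.22) and 5.31 to 7.15 in non-anagen skin (median 6.43). Its fitted difference was -0.23 with a 95% interval of -0.47 to 0.01 (adjusted p = 0.279). The interval for Hoxb13 was -0.14 to 0.11, and that for Hoxb5 was the widest, -0.47 to 0.13. These intervals rest on 14 anagen arrays, and the size of difference that this number could detect was not tested.

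The other 3 clusters give the scale of these differences. Of their 27 measured genes, 9 were higher and 4 lower in the tail by a factor of 2 (3.94% and 2.02% of all genes were), and their median difference was -0.13. The paralog groups, which are the genes at the same place in different clusters, were set side by side with the values known. Their counts are of calls at any size, by which 43.7% of all genes were higher and 43.4% lower. In groups 1 to 7, 11 of the 12 genes of the other clusters were lower in the tail, with a median difference of -0.84, against 7 of 7 lower and a median of -0.53 in the Hoxb cluster. Hoxd4 was the exception, higher by 0.34 (SE 0.05, adjusted p = 5.01e-12). In groups 10 to 13, 8 of 10 were higher and 1 lower, with a median of 1.32, and Hoxb13 was the one Hoxb gene there.

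**Figure D2:**
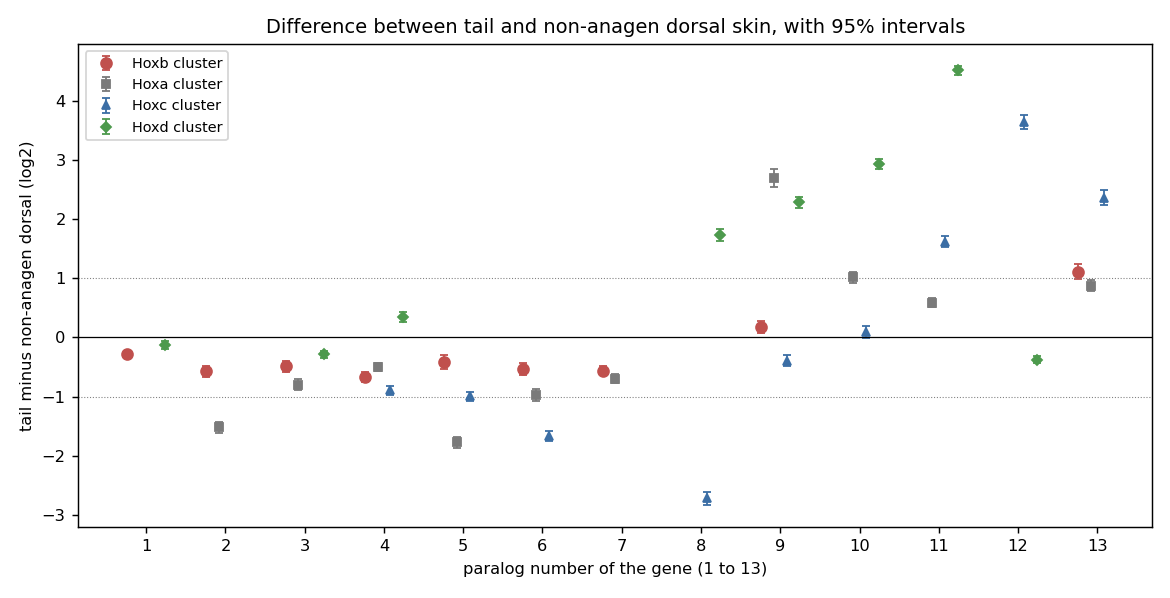
Difference between tail and non-anagen dorsal skin (log2, vertical axis) by paralog number (horizontal axis) for the genes of the Hoxb cluster and of the Hoxa, Hoxc and Hoxd clusters; bars are 95% intervals, taken from the SE for the other clusters, and dotted lines mark a factor of 2. The 9 measured Hoxb genes run between -0.67 and 1.11. The 27 measured genes of the other 3 clusters run between -2.72 for Hoxc8 and 4.51 for Hoxd11. The probe set shared by Hoxb8 and Hoxb7, at -1.69, is not drawn.

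Single paralogs of a group often moved by different amounts. In group 9 the fitted difference was 2.69 for Hoxa9 and 2.28 for Hoxd9, against 0.18 for Hoxb9, and -0.39 for Hoxc9. In group 13, Hoxc13, a gene of the growing hair, was higher by 2.36 and Hoxa13 by 0.87. In group 5, Hoxa5 had a difference of -1.77 and Hoxc5 of -1.0, against -0.41 for Hoxb5. The largest in each cluster were Hoxa9 at 2.69, Hoxc12 at 3.65 and Hoxd11 at 4.51. Hoxa2, Hoxc8, Hoxd9 and Hoxd10, also among the leading genes of their clusters, stood at -1.51, -2.72, 2.28 and 2.93.

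The genes that flank the cluster went both ways. Of 22 measured neighbours, 11 were higher and 8 lower at any size, where 43.7% and 43.4% of all genes were. Their median difference was 0.03, which turned to -0.11 with arrays shifted to a common median and to -0.08 after quantile normalization. Ttll6, a tubulin-modifying enzyme next to Hoxb13, differed by -0.03 (SE 0.03, adjusted p = 0.403), while Skap1, a T cell adaptor next to Hoxb1, differed by -0.69 (SE 0.03, adjusted p = 1.02e-48). Calcoco2, an autophagy receptor, lies beyond Ttll6 and differed by -0.54 (SE 0.04, adjusted p = 1.23e-34). The largest differences among the neighbours were -1.81 for B4galnt2, 1.12 for Snx11 and 0.69 for Sp6, an epithelial transcription factor.

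Among genes known to keep Hox clusters on or off, none of 15 Polycomb genes and none of 9 Trithorax or H3K27 demethylase genes differed by a factor of 2. Of all genes only 3.94% were higher and 2.02% lower by that factor, so these counts alone say little. The largest were Suz12, a core subunit of the repressor, at 0.54, Phc1 at 0.43 and Jarid2 at 0.40 in the first list. In the second they were Wdr5 at 0.57, Kmt2a, the methyltransferase that keeps Hox genes on, at -0.54 and Ash2l at 0.30. The median differences of these 2 lists, 0.07 and 0.09, turned negative with arrays shifted to a common median (-0.06 and -0.04) and after quantile normalization (-0.13 and -0.13). The caudal genes Cdx1, Cdx2 and Cdx4, which act in the embryo, read at the low end of the scale and were lower in the tail, with differences of -0.39, -0.29 and -0.28.

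Among the 16 genes of the retinoic acid pathway, 1 was higher and 2 were lower by a factor of 2 (3.94% and 2.02% of all genes were). Stra6, the receptor that takes up retinol, was higher by 1.74, and Aldh1a1, which makes retinoic acid, and Rxrg, a nuclear receptor, differed by -1.28 and -1.27. Of 8 TALE homeodomain genes, whose products bind DNA together with Hox proteins, only Pknox2 was lower by a factor of 2, at -1.0 (SE 0.05, adjusted p = 8.94e-49). Pbx3 and Pbx2 followed with -0.39 and 0.37.

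Some lists of tissue and cell type markers differed strongly between the sites, and others did not. By a factor of 2, 3.94% of all genes were higher in the tail and 2.02% lower. Smooth muscle was lower in the tail in all 8 genes measured, 7 of them by a factor of 2 (Des -3.50, Myh11 -3.25, Cnn1 -3.02). The mean of that list was 5.81 to 7.58 in tails, against 8.03 to 9.22 in anagen and 7.70 to 9.31 in non-anagen dorsal skin. T cell markers were lower in 5 of 5 (Cd3g -3.74, Cd7 -3.67, Cd3e -2.55), with list means of 4.59 to 5.68 in tails, 6.18 to 7.75 in anagen and 6.74 to 8.21 in non-anagen dorsal skin. Of the macrophage and dendritic cell list 4 of 8 were lower by a factor of 2 (Cd207 -1.70, H2-Ab1 -1.62, Cd74 -1.51), while 1 was higher by a factor of 2 and 3 at any size, and of skeletal muscle 9 of 10 were lower (Myh4 -2.97, Ckm -2.27, Tnnc2 -2.25). The macrophage and dendritic cell mean was 7.27 to 8.40 in tails, 7.63 to 9.01 in anagen and 7.74 to 9.62 in non-anagen dorsal skin, and that of skeletal muscle 4.80 to 9.23, 5.10 to 10.14 and 5.05 to 11.40 in the same order.

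In the other direction went the hair shaft keratins, 7 of 7 (Krt33a 5.43, Krt31 5.12, Krt86 5.02), the inner root sheath, 7 of 8 (Krt25 5.78, Krt71 5.72, Krt27 4.37), melanocytes, 6 of 7 (Tyrp1 3.64, Tyr 2.77, Pmel 2.61), and mast cells, 5 of 7 (Tpsab1 1.92, Tpsb2 1.39, Cpa3 1.15). List means of the hair shaft keratins were 6.10 to 11.50 in tails, 5.58 to 11.39 in anagen and 5.20 to 6.28 in non-anagen dorsal skin, and those of mast cells 6.20 to 8.44, 5.56 to 6.72 and 4.93 to 6.91. In that order they were 6.56 to 10.73, 6.71 to 11.92 and 5.46 to 6.75 for the inner root sheath and 5.69 to 8.93, 5.69 to 8.23 and 5.46 to 6.81 for melanocytes. Fibroblast markers, the cells in which site-specific Hox transcripts are best known, did not differ by a factor of 2 in any of 10 genes (Pdgfra 0.92, Dpt 0.67, Col3a1 -0.48), with list means of 8.81 to 10.07 in tails, 8.59 to 10.17 in anagen and 7.65 to 10.58 in non-anagen dorsal skin, and neither did the epidermal (Ivl -0.82, Krt14 0.57, Dsg3 -0.46), adipocyte (Lipe 0.65, Adipoq -0.41, Plin1 0.40) or endothelial lists (Cdh5 -0.68, Flt1 -0.47, Pecam1 -0.43). Of 4 Schwann cell genes 1 was lower by a factor of 2 (Cdh19 -1.90, Sox10 -0.42, Pmp22 0.32). The part of these cell types in the differences of the Hoxb genes was not tested.

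Females and males differed little. In tail skin 1 of the 9 Hoxb genes was called, against 1.64% of all genes higher and 1.2% lower in females. This was Hoxb3, which averaged 0.13 higher in females (SE 0.03, adjusted p = 0.0227), and 0.13 without the 3 male tails low in Y-linked genes (adjusted p = 0.0273). In non-anagen dorsal skin none was called (limma, with 6.19% of all genes higher and 6.11% lower), and 2 had an unadjusted p under 0.05. These were Hoxb3, at 7.66 ± 0.41 in the 41 females against 7.45 ± 0.36 in the 44 males (mean and SD), with a fitted difference of 0.20 (adjusted p = 0.0914), and Hoxb7, at 6.07 ± 0.30 against 6.22 ± 0.26 in the same order, with a fitted difference of -0.15 (adjusted p = 0.097). The call for Hoxb7 was made under a common median (-0.19, adjusted p = 0.0365) and under quantile normalization (-0.20, adjusted p = 0.0388). The sex difference itself did not differ between tail and dorsal skin by the test for any Hoxb gene (4.46% of all genes differed upwards and 4.63% downwards, and no Hoxb gene had an unadjusted p under 0.05).

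Mice differed less in the tail than in dorsal skin for 8 of the 9 genes. After adjustment for sex and batch, the SD over tails was 0.43 to 0.73 times that over non-anagen dorsal arrays for Hoxb1 to Hoxb9. Over all genes the median ratio was 0.76, so a smaller spread in tails was common and not particular to these genes. Hoxb5 had the largest dorsal SD of the cluster, 0.54, which only 728 of 18820 genes exceeded. Hoxb13 went the other way, with an SD of 0.55 in tails and 0.21 in dorsal skin, a ratio of 2.63, and 444 genes spread more than it in tails.

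Whether the genes of the cluster rise and fall together from mouse to mouse was asked within each site, with sex and batch removed. A pair was called where each gene passed in the other's fit over all genes. The shares of all relations beside the counts need a pass in only 1 fit, an easier rule. Counts and shares are therefore not directly comparable. In tail skin 10 of the 36 pairs were called positive (19.1% of all gene-by-Hoxb relations were) and 1 negative (10.7%). In non-anagen dorsal skin 8 were called positive (11.8%) and 0 negative (7.58%), although 1 negative pair, of Hoxb9 and Hoxb13, missed there with r = -0.35. These shares average over unlike genes. In dorsal skin 20.1% to 23.1% of all genes were called positive with each of Hoxb3 to Hoxb6, against 0% with Hoxb13 and at most 8.31% with the others. In tails the share was 7.02% for Hoxb3, 25.1% for Hoxb4, 23.2% for Hoxb5 and 31.5% for Hoxb6, and 5.17% to 26.7% for the others.

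A single run of 4 neighbouring genes, Hoxb3, Hoxb4, Hoxb5 and Hoxb6, had all of its 6 pairs called at both sites. The run was picked after these correlations were seen, so its calls are no separate test of it. Their r was 0.46 to 0.62 in tails and 0.56 to 0.76 in non-anagen dorsal skin. In tails the strongest pair was Hoxb5 with Hoxb6, at r = 0.62 and a rank correlation rho of 0.58. In dorsal skin it was Hoxb3 with Hoxb5, at r = 0.76 and rho = 0.76. For both, 100000 two-sided permutations of mice gave p = 1e-05, the smallest they can give, and leaving out the 2 mice farthest from the median of Hoxb5 left 0.51 and 0.76. Among females the r of the 6 pairs was 0.52 to 0.64 in tails and 0.61 to 0.80 in dorsal skin, and among males 0.38 to 0.61 and 0.48 to 0.77. The tail pair of Hoxb3 and Hoxb6 (r = 0.46) lost its call under a common median (r = 0.35, adjusted p = 0.0508), under quantile normalization (r = 0.27, adjusted p = 0.149) and in males alone (r = 0.38, adjusted p = 0.328). In males alone the tail pairs of Hoxb3 with Hoxb4 and Hoxb5, and of Hoxb4 with Hoxb5, were not called either (adjusted p = 0.313, 0.298 and 0.0612).

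**Figure D3:**
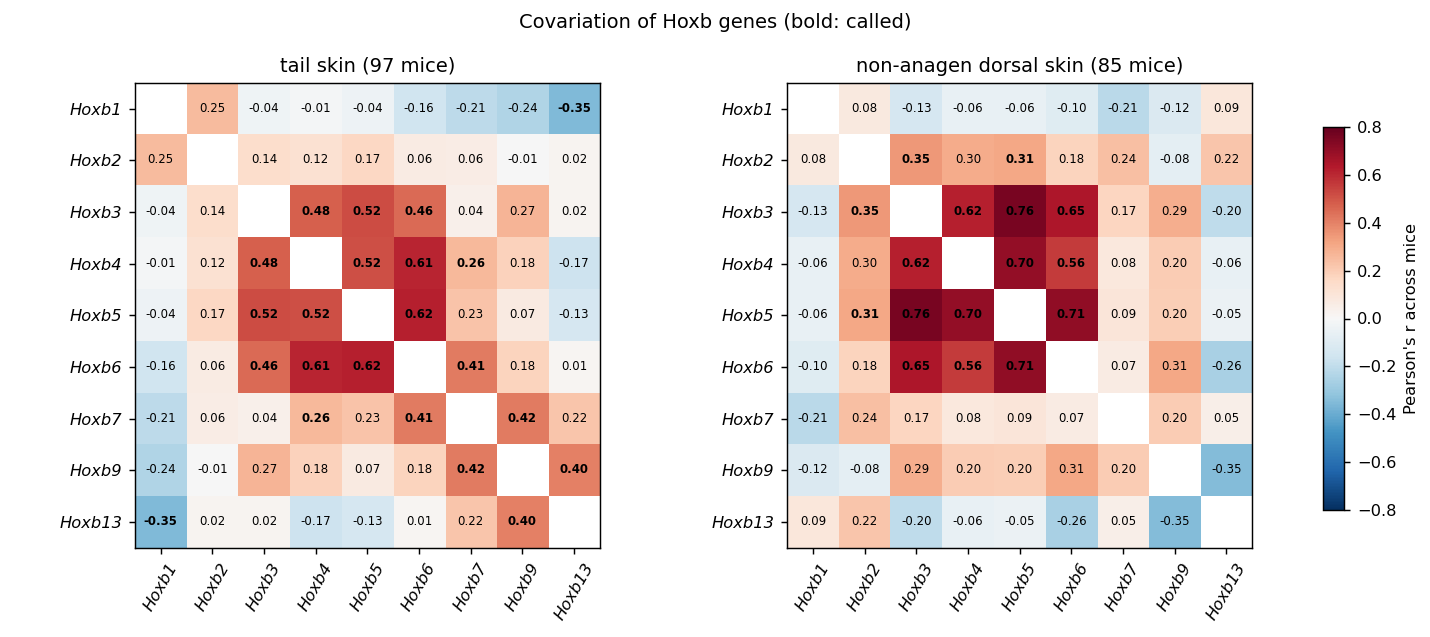
Pearson's r across mice for every pair of Hoxb genes, in tail skin (left, 97 mice) and non-anagen dorsal skin (right, 85 mice), after adjustment for sex and batch; bold numbers are called pairs. The block from Hoxb3 to Hoxb6 is positive at both sites, with r of 0.46 to 0.62 on the left and 0.56 to 0.76 on the right, and the pair of Hoxb9 and Hoxb13 is 0.40 on the left and -0.35 on the right.

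The genes next to this run joined it only in part. Hoxb2 was called with none in tails and with Hoxb3 (r = 0.35) and Hoxb5 (r = 0.31) in dorsal skin. Both dorsal calls were lost without the 5 arrays least like their group (adjusted p = 0.0611 and 0.0884). Only 1 of those 5 was a non-anagen dorsal array, so the dorsal fits left out that array alone. Hoxb7 was called in tails with Hoxb4 (r = 0.26), Hoxb6 (r = 0.41) and Hoxb9 (r = 0.42), and with none in dorsal skin. The pair of Hoxb4 and Hoxb7 was lost without the 2 tails among those 5 arrays (r = 0.14, adjusted p = 0.402). For Hoxb6 and Hoxb7 rho was 0.21 and r without the 2 mice farthest in Hoxb7 was 0.27. Hoxb1 was called positive with no other Hoxb gene at either site in the main fits. With the first principal component of all genes as a covariate, it was called with Hoxb2 in tails (r = 0.33, limma adjusted p = 0.0312). With the means of the fibroblast, epidermis, skeletal muscle and adipocyte lists as covariates, 0 pairs with a gene outside the run were called positive at either site. Distance along the cluster was counted by gene number over the measured genes, so that Hoxb7 and Hoxb9 are neighbours although Hoxb8 lies between them. The median r was 0.41 in tails and 0.27 in dorsal skin for neighbours, 0.18 and 0.20 for genes 2 or 3 places apart, and -0.01 and -0.05 for genes 4 to 8 places apart. Pairs within the run are at most 3 places apart and enter only the first 2 of these groups. For all pairs with a gene outside the run the median r was 0.06 in tails and 0.08 in dorsal skin. Whether r falls with distance apart from the run was not tested.

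The promoters of one gene inside this run and of one outside it are shown, as the letters from which each transcript starts. Both are the 250 bases before the start, on the plus strand of GRCm38.p6 as RefSeq has it, with matches to the motifs below in capitals. Of the 9 genes, these 2 had a promoter in the table used.
Hoxb4, chr11:96318017-96318266: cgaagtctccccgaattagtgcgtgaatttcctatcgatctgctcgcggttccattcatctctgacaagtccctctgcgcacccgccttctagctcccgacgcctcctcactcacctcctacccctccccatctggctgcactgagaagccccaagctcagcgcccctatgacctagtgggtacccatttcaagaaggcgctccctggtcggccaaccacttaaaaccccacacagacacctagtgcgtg
Hoxb1, chr11:96365508-96365757: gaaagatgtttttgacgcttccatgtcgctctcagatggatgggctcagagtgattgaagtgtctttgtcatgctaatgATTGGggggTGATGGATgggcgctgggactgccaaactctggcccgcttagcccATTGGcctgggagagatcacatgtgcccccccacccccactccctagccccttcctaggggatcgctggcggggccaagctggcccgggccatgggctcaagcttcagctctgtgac
The Hoxb4 stretch holds 14 CG pairs and that of Hoxb1 holds 7, and the median over 32851 promoters is 6. On both strands, the letters CCAAT, a common promoter element, were found 2 times before Hoxb1 and not before Hoxb4, and 33.8% of promoters hold them. TGATNNAT, a form bound by pairs of Pbx and Hox proteins, was found 1 time before Hoxb1, in 7.68% of promoters, and not before Hoxb4. TATAAA (12.4% of promoters), CACGTG (6.02%), GGGCGG (32.7%) and TTTATNG, a form bound by caudal proteins (9.81%), were found in neither. No capital letters overlap between motifs, and a match of letters is not a measured binding site.

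MicroRNA genes inside the cluster were measured as well. Mir10a lies between Hoxb4 and Hoxb5 and Mir196a-1 between Hoxb9 and Hoxb13, and the products of both are known to lower Hox transcripts. Their mature sequences from RefSeq (GRCm38.p6, plus strand) are shown with the seed, bases 2 to 8, which pairs with the target, in capitals, and the 2 seeds differ.
miR-10a-5p, chr11:96317186-96317208: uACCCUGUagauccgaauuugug
miR-196a-5p, chr11:96265187-96265208: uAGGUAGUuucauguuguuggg
The probe sets carry the name of the microRNA gene, and whether they read the mature form or a longer transcript is not given in the sources used here. Mir10a rose and fell with the run from Hoxb3 to Hoxb6 in tails, with r of 0.52 for Hoxb3, 0.60 for Hoxb4, 0.61 for Hoxb5 and 0.67 for Hoxb6 (adjusted p of 0.000138 or less). With Hoxb3 it ranked 3 among all genes outside the cluster. In non-anagen dorsal skin its r with these genes was 0.40 to 0.50, and its rank among all genes was 1033 at best.

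Mir196a-1 followed the same genes in tails (r = 0.38, 0.63, 0.58 and 0.60 from Hoxb3 to Hoxb6) and also Hoxb7 (r = 0.50, adjusted p = 4.11e-06, rho = 0.33). With Hoxb4 it ranked 3 in tails, and with Hoxb9 it ranked 6 in dorsal skin (r = 0.48, adjusted p = 0.0144). Neither went with Hoxb13 at either site, with r between -0.25 and -0.07. Between the sites the probe sets differed little, Mir196a-1 by 0.22 (SE 0.08, adjusted p = 0.00407) and Mir10a by -0.15 (SE 0.06, adjusted p = 0.0151).

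The run from Hoxb3 to Hoxb6 was not alone in its course across mice. In tails 1 to 1548 genes went with one of its members more closely than another member did, and in dorsal skin 11 to 863. The genes that were most like them in tails were Tenm2 for Hoxb3 (r = 0.52), Zfp866 for Hoxb4 (r = 0.68), Pitpnm3 for Hoxb5 (r = 0.66) and the ubiquitin ligase Herc2 for Hoxb6 (r = 0.71), over 97 mice. In dorsal skin they were Agrn, which encodes the matrix protein agrin (r = 0.82), the histone methyltransferase Kmt2c (r = 0.75), the kinase Mark2 (r = 0.83) and Srcin1 (r = 0.81), in the same order and over 85 mice. The 8 genes passed over all genes (limma, adjusted p of 0.000138 or less).

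These 4 genes also followed broad features of the arrays. The first principal component of all genes held 21.1% of the variance in tails and 18.0% in dorsal skin. It correlated with Hoxb3 to Hoxb6 at 0.24 to 0.51 in tails and at 0.61 to 0.72 in dorsal skin. The median of the array correlated with them at 0.24 to 0.52 in tails and at 0.49 to 0.61 in dorsal skin. With this component as a further covariate, all 6 pairs were still called in tails, with r of 0.40 to 0.56, and 5 of 6 in dorsal skin, where Hoxb4 with Hoxb6 was lost at r = 0.25 (adjusted p = 0.218). With those 4 list means as covariates, 6 of the 6 pairs were called in tails and 5 in dorsal skin.

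Marker lists moved with the run too. In tails the epidermis mean went with Hoxb4, Hoxb5 and Hoxb6 (r = 0.51, 0.54 and 0.56, with 53.6% of all genes called with that mean), while the r of these 3 genes with the fibroblast mean lay between -0.06 and 0.07. In dorsal skin its r with the mean of the epidermis list was 0.55 to 0.71 (53.9% of all genes were called with that mean), with the Trithorax list 0.71 to 0.80 (50.9%) and with the Polycomb list, of opposite known function, 0.58 to 0.66 (51.6%). With fibroblast (-0.43 to -0.58), endothelium (-0.44 to -0.59), macrophage and dendritic cell (-0.43 to -0.57) and mast cell means (-0.43 to -0.53) it was negative, all called, where 30.9% to 35.5% of all genes were. The part of the amount of each cell type in these correlations was not tested.

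**Figure D4:**
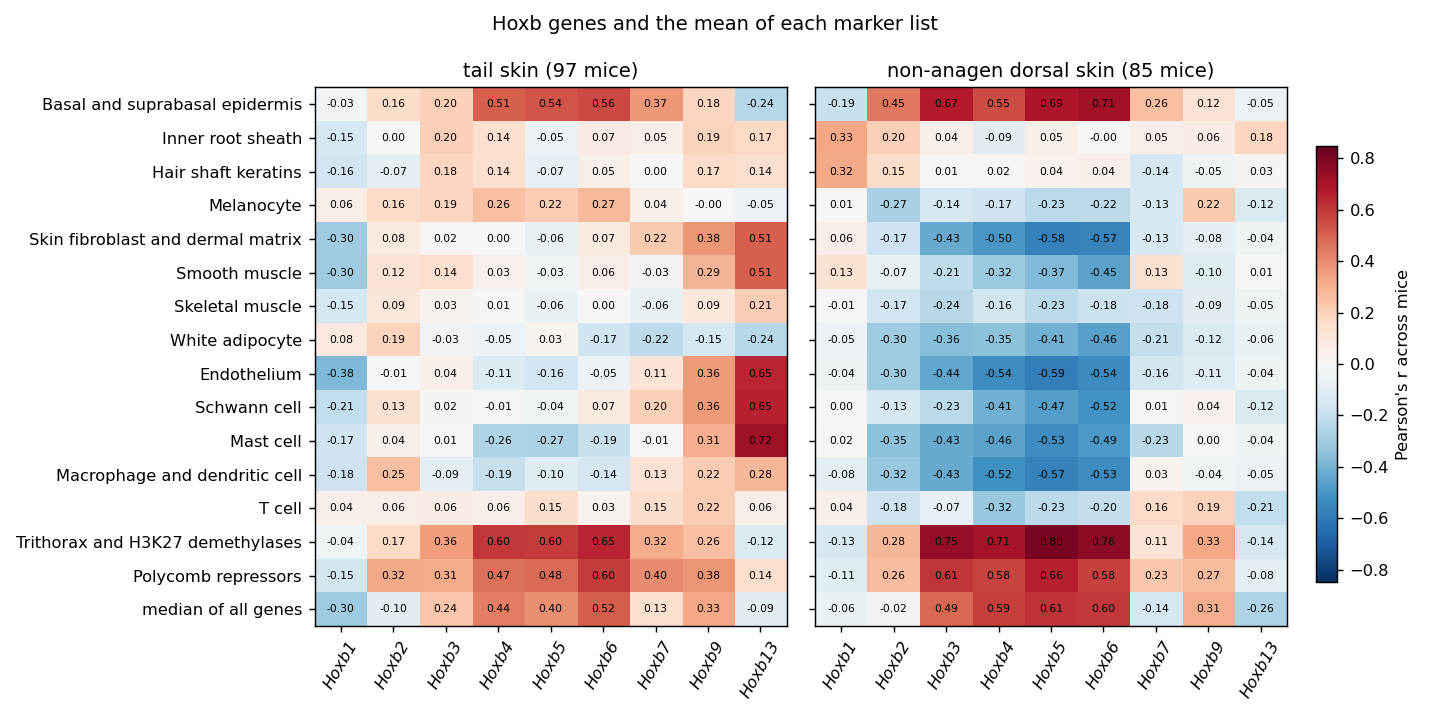
Pearson's r across mice between each Hoxb gene (columns) and the mean of each marker list, or the median of all genes (rows), in tail skin (left, 97 mice) and non-anagen dorsal skin (right, 85 mice), after adjustment for sex and batch. Hoxb3 to Hoxb6 go with the epidermis and Trithorax lists in dorsal skin, at up to 0.71 and 0.80, and Hoxb13 in tails goes with the mast cell, Schwann cell and endothelium lists at 0.72, 0.65 and 0.65.

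Hoxb13 varied the most among tails and moved with other genes. The tail values formed one run with a long upper end: the split that best divided them set 6 tails above 91 at 4.04 pooled SDs, but with a gap of only 0.02 between them, and the widest gap, 0.54, lay below the 2 highest tails. Across tails it was most like Angpt2, a vascular growth factor (r = 0.78, rho = 0.71, limma adjusted p = 3.34e-17). Of 22 list means, 8 were called positive and 3 negative with Hoxb13 in tails. Among the positive ones, r was 0.72 for mast cells, 0.65 for Schwann cells, 0.65 for endothelium, 0.51 for smooth muscle and 0.51 for fibroblasts. With the means of these 5 lists, 27.4% to 49.6% of all genes were called. Among the 91 lower tails alone these 5 were 0.51, 0.41, 0.49, 0.42 and 0.40, and Angpt2 stood at 0.66.

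In dorsal skin, where Hoxb13 read near the bottom of the scale, no gene was called with it in either direction. The closest by r was Rpl17 at 0.44 (adjusted p = 0.38).

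Hoxb9 and Hoxb13 went together in tails and not in dorsal skin. In tails r was 0.40 (rho = 0.39, permutation p = 6e-05 for both, two-sided), and among the 91 tails with lower Hoxb13 it was 0.32. In dorsal skin r was -0.35 (rho = -0.34, permutation p = 0.00108 and 0.00141), which was not called over all genes, as no gene was with Hoxb13 there. The slope of Hoxb13 on Hoxb9 was 1.03 in tails and -0.17 in dorsal skin, and the difference of 1.202 (SE 0.21) passed the test between the sites (limma interaction, adjusted p = 0.000123). It was the only pair to do so, in both directions of fitting, among 36 pairs, while 4.39% of all relations had a higher and 4.58% a lower slope in the tail. The tail call for the pair was lost with the 4 list means as covariates (r = 0.24, adjusted p = 0.173) and with the first principal component (r = 0.30, adjusted p = 0.215).

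**Figure D5:**
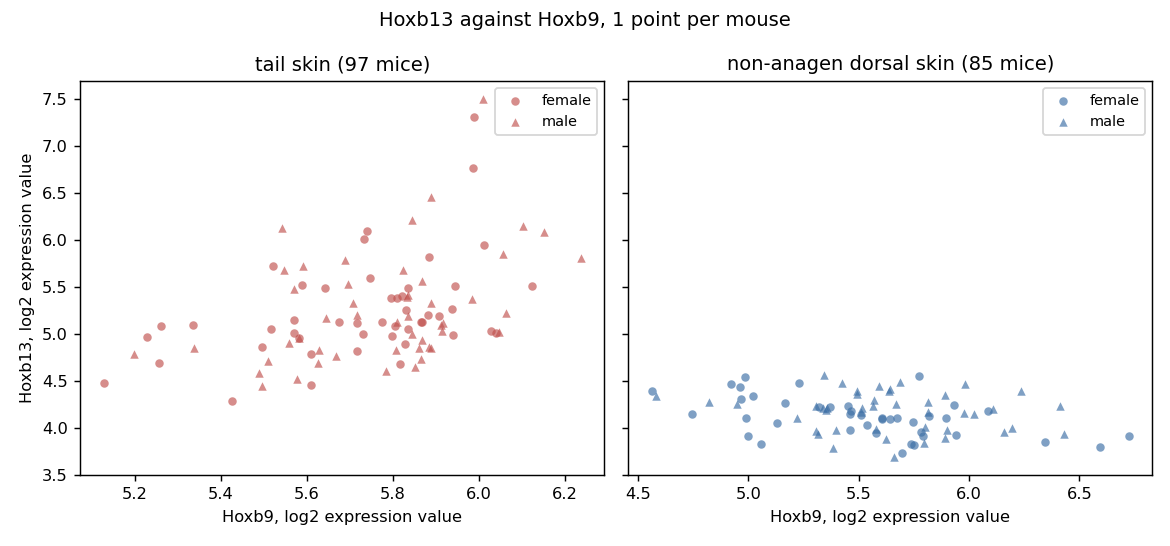
Log2 expression values of Hoxb13 (vertical axis) against Hoxb9 (horizontal axis) in tail skin (left, 97 mice) and non-anagen dorsal skin (right, 85 mice), 1 point per mouse, circles for females and triangles for males; the horizontal axes differ in range. Hoxb13 is higher where Hoxb9 is higher in tails (r = 0.40 after adjustment for sex and batch), while all dorsal values of Hoxb13 lie between 3.69 and 4.56.

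The one negative pair in tails was that of the 2 ends of the cluster. Hoxb1 and Hoxb13 had r = -0.35 (rho = -0.32, permutation p = 0.00039 and 0.00121, limma adjusted p of 0.00421 and 0.00791 in the 2 fits), against 0.09 in dorsal skin, and -0.33 among the 91 tails with lower Hoxb13. The call was lost under a common median (r = -0.23, adjusted p = 0.0862), under quantile normalization (r = -0.23, adjusted p = 0.186) and with the first principal component (r = -0.29, adjusted p = 0.0579).

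The remaining genes outside the run had neighbours of their own. In tails Hoxb1 was most like Tmem212 (r = 0.55), Hoxb2 like the neurotrophin receptor Ngfr (r = 0.63), Hoxb7 like the autophagy receptor Nbr1 (r = 0.67) and Hoxb9 like Cnksr3 (r = 0.60). In dorsal skin the closest were Sost, an inhibitor of Wnt signalling, for Hoxb1 (r = 0.52), Poldip3 for Hoxb2 (r = 0.59), Nhp2 for Hoxb7 (r = 0.59) and Plxdc1 for Hoxb9 (r = 0.55). Each passed over all genes (limma, adjusted p of 0.00935 or less), but for Hoxb1 with Sost rho was 0.38 and r without the 2 mice farthest in Hoxb1 was 0.39.

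Genes on chromosome 11 were common among the genes most like some members. In a backcross, genes that lie near each other are inherited together. Of all genes with a known place outside the cluster, 7.77% are on chromosome 11. Among the 50 genes most like Hoxb7 in tails, 28 are, of which 1 lies within 100 genes of the cluster. For Hoxb9 the number was 11 of 50 in tails and 17 of 50 in dorsal skin, with 5 of these 17 within 100 genes. For the other members and sites it was 4 to 10 of 50, and among the 50 genes that went most against Hoxb13 in dorsal skin it was 15. Genotypes were not among the data analysed here.

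A mouse's tail said little about its own back. Over the 82 mice with both, the tail and dorsal values of the same gene correlated at -0.21 to 0.32 for the 9 genes, and the median over all genes was 0.08. Only Hoxb2 was called, at r = 0.32 (rho = 0.28, permutation p = 0.0032 and 0.0102, adjusted p over all genes = 0.0453), against 8.77% of all genes, and 0 were called negative, against 0.0638%. This call was lost in batches 1 and 4 alone (r = 0.23, adjusted p = 0.288), on ranks (adjusted p = 0.0599) and with arrays shifted to a common median (adjusted p = 0.0756). For the run from Hoxb3 to Hoxb6, r was -0.05 to 0.07, and for Hoxb13 it was -0.21 (permutation p = 0.0613).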

How the data were processed

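RNA of 1 ug per array was labelled with biotin and read on a mouse gene array, per the labels' protocols. The deposited values are log2 values made by the authors with RMA, per the submitters' processing notes; which release was used, and whether values were adjusted afterwards, is not given in the sources used here. Of 35556 probe sets, 21218 named 1 gene in the platform annotation, 1881 several and 12457 none. The probe set with the highest mean was kept per gene, leaving 18820 genes, with no filter on low values.

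Site, hair cycle and sex were tested with limma 3.58.1 in R 4.3.3, with sex as a covariate and batch within a site, and p-values were adjusted over all genes (Benjamini-Hochberg). Correlations used values adjusted for sex and batch, one Hoxb gene at a time as covariate over all other genes, with 100000 permutations in Python 3.11.15 with numpy 2.4.6. In all 72 pairs, 36 microRNA relations, 396 relations with list means and 9 relations between sites were computed. Mouse numbers pair tail and dorsal skin of one animal, per the labels, and a block on the mouse was an alternative. Members and lists were chosen with earlier results of these data known. Genes named outside the cluster were the closest per member and site, the 3 largest differences of each list, and the nearest flanking genes. Hoxd4, the paralogs of groups 5, 9 and 13, the microRNA genes and the run from Hoxb3 to Hoxb6 were chosen after their values were seen. Of 225 listed genes 204 were measured. Each test was tried on simulated data first. Scaling, filters, batches and array weights were the alternatives.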

Additional observations from a re-analysis of the deposited data

Results flagged for a closer look

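The slopes that tie Hoxb9 and Hoxb13 together differed between tail and dorsal skin, by a test of the difference itself. The slope of Hoxb13 on Hoxb9 differed by 1.202 (SE 0.21, limma adjusted p = 0.000123), and that of Hoxb9 on Hoxb13 by 0.86 (SE 0.17, adjusted p = 0.00221). The slope of Hoxb9 on Hoxb13 was 0.16 in tails and -0.70 in non-anagen dorsal skin. Hoxb13 spread over 3.22 in tails and 0.87 in dorsal skin on the log2 scale, and the part of this difference in range was not tested.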

How the results depend on the processing

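Of 677 values of single genes, pairs and lists under an alternative, 598 stayed the same. For genes and pairs this means the same direction and side of the threshold, and for list medians the same direction. Of the others, 51 lost their call, 10 gained one and 9 medians of lists changed sign. The paired analysis, with the mouse as a random block or the difference within each mouse, changed no call in the tail comparisons but that of Hoxb5 against anagen skin (-0.25 with the random block and -0.38 within each mouse), which made 7 genes lower there in place of 6. With arrays shifted to a common median, Hoxb genes higher in the tail numbered 0 at a factor of 2 against either dorsal group and 1 at any size against non-anagen skin (1 after quantile normalization), 1 was lower in females in dorsal skin (also 1 after quantile normalization), genes of the other clusters lower by a factor of 2 numbered 7, negative tail pairs 0 (0 after quantile normalization) and negative dorsal pairs 1, and slopes higher in the tail 4. The filter on low values left 3 Hoxb genes by construction, so that 3 were lower and 0 higher in both tail comparisons. Positive pairs numbered 6 in tails and 5 in dorsal skin with the list means as covariates, with 0 negative tail pairs. They numbered 7 in tails and 5 in dorsal skin with the first principal component, chosen after seeing the data, with 2 negative tail pairs. One of the 7, Hoxb1 with Hoxb2 (r = 0.33, limma adjusted p = 0.0312), was not called in the main fit. The 2 negative pairs were not called there either. They were Hoxb13 with Hoxb4 (r = -0.34, adjusted p = 0.00928) and with Hoxb5 (r = -0.25, adjusted p = 0.0487). Males alone gave 2 positive and 0 negative tail pairs and females 0 negative ones, with fewer mice in each fit. In the main batches 1 slope was lower in the tail. The correlation of a mouse's own tail with its own back was called for 0 genes in the main batches, 0 on ranks and 0 with the shift. Values near 0 changed sign: Hoxb1 in anagen skin, at 0.0020 without sex, 0.0072 with the shift and 0.0085 after quantile normalization; Hoxb1 between the sexes in dorsal skin, at -0.022 and -0.024; its sex difference between sites, at 0.014 and 0.011; and Hoxb5 and Hoxb6 between a mouse's sites in the main batches, at -0.022 and -0.085. Where no cause is stated, it was not tested.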

Other observations

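The probe set annotated to both Hoxb8 and Hoxb7 changed more between the sites than any of the 9 measured genes. It read 4.08 to 5.39 in the tails (median 4.77), against 5.27 to 7.21 (median 6.45) in anagen and 5.16 to 7.72 (median 6.51) in non-anagen dorsal skin. Of the 97 tails, 87 were below every non-anagen dorsal array, and the tail was the lower in 82 of 82 mice. The fitted difference was -1.69 (SE 0.06, limma adjusted p over 35556 probe sets = 2.84e-64), while the probe set of Hoxb7 alone stood at -0.56. Which of the 2 genes gave the signal was not tested.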
